A study of Homo sapiens with 4 samples.

Results

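The integrated stress response was examined through 10 genes, ATF4, ATF5, DDIT3, DDIT4, TRIB3, ASNS, CHAC1, PPP1R15A, XBP1 and SLC3A2, in SW1990 and PANC-1 cells with and without radiation. They were picked by gene name out of 58174 genes with an identifier in the deposited table, and all 10 had a row. SW1990 and PANC-1 are established human pancreatic cancer lines, sequenced here as 4 libraries: unirradiated SW1990, SW1990 after 10 Gy of X-rays, unirradiated PANC-1, and PANC-1 after the same dose. PANC-1 cells were grown in DMEM and SW1990 cells in another medium, so a difference between the lines cannot be told apart from one between the media. The time from radiation to RNA was not given in the sources used here.

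Each condition had 1 library, so no difference below has a replicate check, and every test on the reads compares libraries, not conditions. The counts summed to 17939210 and 18388969 in unirradiated and irradiated SW1990 cells, and to 23451153 and 20154644 in the PANC-1 libraries. Levels are given as FPKM, which is scaled to transcript length and library size, and differences as the log2 ratio of scaled counts with a 95% interval that covers counting error only. Genes were called at a fold change above 2 with a q-value under 0.001. In bulk RNA, fewer cells using a gene and less RNA per cell cannot be told apart.

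Cells answer amino acid shortage, unfolded proteins in the endoplasmic reticulum, haem deficiency or viral RNA with kinases that phosphorylate eIF2, the factor that brings the initiator tRNA to the ribosome. Bulk translation slows, while mRNAs with upstream reading frames, ATF4 and ATF5 among them, are translated more. ATF4 is a bZIP transcription factor that induces amino acid transporters, biosynthetic enzymes and tRNA synthetases together with DDIT3 (CHOP), TRIB3 and CHAC1. PPP1R15A (GADD34) directs a phosphatase to eIF2 and so closes the loop. XBP1 belongs to the neighbouring IRE1 branch of the unfolded protein response, where its mRNA is spliced to its active form.

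Since ATF4 is known to act on several of the other members, the promoters of all 10 were searched on both strands for 4 motifs in RefSeq windows (GRCh38.p14) from 250 bases before to 50 after each start site. The motifs were the C/EBP-ATF response element (TGATGNAAN), the endoplasmic reticulum stress element (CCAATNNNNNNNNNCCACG), the core of the unfolded protein response element (TGACGTGG) and the cyclic AMP response element (TGACGTCA), the last pair sharing their first 6 letters. All 10 members had at least 1 window, 20 among the 35116 searched. The C/EBP-ATF element was present in 3.61% of all windows and in 3 of the 20, those of ASNS, CHAC1 and the most downstream start site of SLC3A2. The stress element was found in 0.0769% of all windows and in 1 of XBP1. The cyclic AMP element was found in 1.85% of all windows and in that of PPP1R15A, and the unfolded protein response core in 0.729% and in none of the members. They are printed 5′ to 3′ on the gene's strand because elements of these kinds are known to be bound by ATF4 and its partners, by ATF6 or by CREB factors, and capitals mark the matched letters.
ASNS (chr7:97872457-97872486, minus strand): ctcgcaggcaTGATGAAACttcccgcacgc
CHAC1 (chr15:40953251-40953280, plus strand): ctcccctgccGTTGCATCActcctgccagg
SLC3A2 (chr11:62881725-62881748, plus strand): tgcaggactcCTTACATCAgctcc
XBP1 (chr22:28800600-28800699, minus strand): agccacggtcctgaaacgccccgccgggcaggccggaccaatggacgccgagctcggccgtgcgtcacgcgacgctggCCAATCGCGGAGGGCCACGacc
PPP1R15A (chr19:48872291-48872390, plus strand): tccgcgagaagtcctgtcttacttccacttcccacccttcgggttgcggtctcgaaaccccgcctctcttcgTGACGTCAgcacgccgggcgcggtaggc
With the start site as position 0, the element began at -68 in ASNS, -210 in CHAC1, where it lay on the opposite strand, and 36 in SLC3A2, also on the opposite strand. The stress element of XBP1 began at -52 and the cyclic AMP element of PPP1R15A at -58. A match is only a run of letters, and the lack of one in DDIT3, DDIT4, TRIB3, ATF4 and ATF5 says only that these letters are not in these windows.

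The labels of the lines were checked first. The epithelial keratins KRT8, KRT18 and KRT19 were at 1352, 944 and 224 FPKM in unirradiated SW1990 cells and at 786, 468 and 146 FPKM in unirradiated PANC-1 cells. EPCAM, an epithelial adhesion molecule, was at 217 and 218 FPKM in the SW1990 libraries and at 2.28 and 2.81 FPKM in the PANC-1 libraries. KRT8, KRT18 and KRT19 were thus abundant in both lines, while EPCAM was low in PANC-1. With KRT7, the remaining keratin checked, the 5 epithelial markers summed to 2743 FPKM in unirradiated SW1990 cells and 1409 FPKM in unirradiated PANC-1 cells. KRT7 was thus far below the other keratins in both lines. CDKN1A, the p53-induced cell cycle inhibitor, went from 27.9 to 88.5 FPKM in SW1990 (log2 ratio 1.70, called) and from 20.2 to 15.4 FPKM in PANC-1, where it was not called.

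In unirradiated cells 7 of the 10 genes were higher in PANC-1 than in SW1990 past the limits of the call, where 18.6% of all genes tested were. The irradiated PANC-1 library was called lower for 6 of them, where 2.35% of all genes were. In SW1990 none was called, near the share of all genes there (4.13%). The genes that were lower after radiation in PANC-1 were the ATF4-induced factor DDIT3, the regulators TRIB3, PPP1R15A and DDIT4, and the enzymes ASNS and CHAC1, between 2.04-fold and 3.93-fold. ATF5, XBP1 and SLC3A2 did not share this pattern. The span of each gene in GRCh38 is given with it, as deposited.

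**Figure D1:**
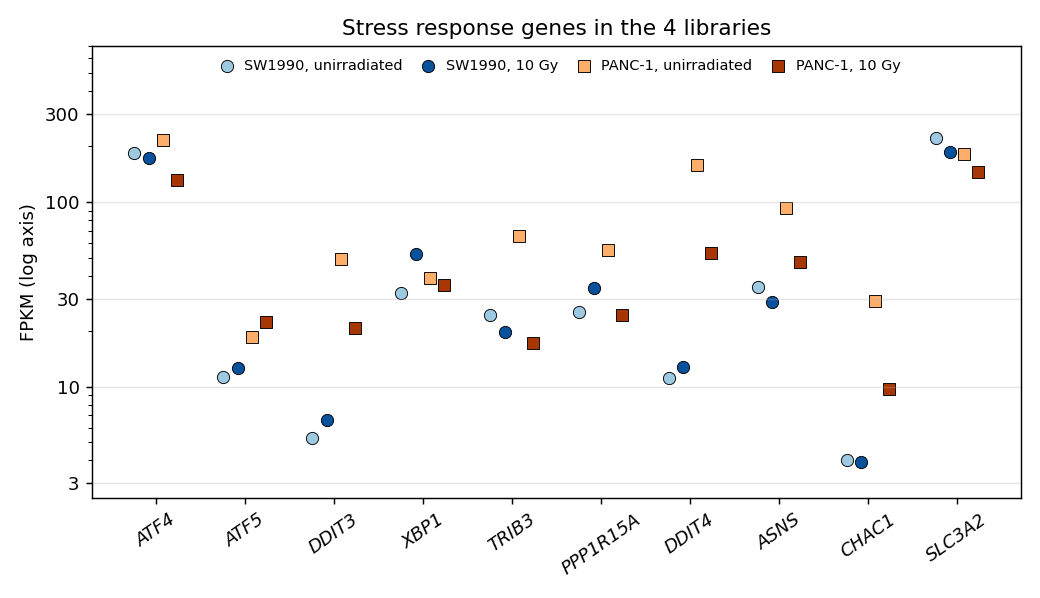
FPKM (log axis) of the 10 genes in each of the 4 libraries, 1 point per library, circles for SW1990 and squares for PANC-1, light for unirradiated and dark for 10 Gy. DDIT4 reads 159 FPKM in unirradiated PANC-1 cells and 52.8 FPKM after radiation, against 11.2 and 12.8 FPKM in SW1990.

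Among the transcription factors, ATF4 (chr22:39519695-39522685) was abundant in every library. It was at 185 and 174 FPKM in unirradiated and irradiated SW1990 cells, and at 218 and 131 FPKM in PANC-1. The irradiated PANC-1 library was the lowest of the 4. In PANC-1 the log2 ratio was -0.70 (95% interval -0.75 to -0.66), or 1.63-fold lower, which did not reach the fold limit, and in SW1990 it was -0.12 (-0.17 to -0.08). The values are of mRNA, while ATF4 is known to be controlled largely at translation.

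DDIT3 (chr12:57516588-57520517) encodes CHOP, the bZIP factor linked to cell death under prolonged stress. It was scarce in SW1990, at 5.27 and 6.64 FPKM, and reached 49.2 FPKM in unirradiated PANC-1 cells and 20.8 FPKM after radiation. Both PANC-1 libraries were above both SW1990 libraries. Its log2 ratio in PANC-1 was -1.27 (-1.42 to -1.13, called), while in SW1990 the interval from -0.17 to 0.56 spanned 0 at 121 and 139 counts. On the opposite strand, MARS overlaps 27.2% of the exonic bases of DDIT3 and MBD6 4.4%, and AC022506.1, which was not analysed here, shares 8.0% on the same strand. The strand setting of the counting was not stated, so reads in these overlaps cannot be assigned with certainty. MARS counted 3145, 2768, 9601 and 6498 reads in unirradiated SW1990, irradiated SW1990, unirradiated PANC-1 and irradiated PANC-1, highest in unirradiated PANC-1 cells as DDIT3 was, and MBD6 counted 595, 644, 1788 and 977 reads. Their part in the DDIT3 values was not tested.

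ATF5 (chr19:49928702-49933935), a related bZIP factor that induces mitochondrial chaperones, was the one member with a positive log2 ratio in both lines. It was at 11.4 and 12.6 FPKM in SW1990 and at 18.5 and 22.5 FPKM in PANC-1. The log2 ratios were 0.28 (0.09 to 0.46) in SW1990 and 0.24 (0.11 to 0.36) in PANC-1, neither of which was called. NUP62 overlaps 21.2% of its exonic bases on the opposite strand. It counted 2059 and 2170 reads in unirradiated and irradiated SW1990 cells, and 1665 and 1775 in PANC-1. As for DDIT3, reads in the overlap cannot be assigned with certainty, and the part of NUP62 in the ATF5 values was not tested.

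XBP1 (chr22:28794555-28800597) encodes the factor that drives chaperone and secretory genes once its mRNA is spliced by IRE1. It was at 32.1 FPKM in unirradiated and 52.6 FPKM in irradiated SW1990 cells, against 38.7 and 35.5 FPKM in PANC-1. The irradiated SW1990 library was the highest of the 4. The log2 ratio of 0.81 in SW1990 (0.70 to 0.92) was the largest of the members in that line but stayed under the fold limit, and that of PANC-1 was -0.09 (-0.19 to 0.01). The table gives 1 value per gene and does not separate spliced from unspliced XBP1.

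Next came the regulators. TRIB3 (chr20:362835-397559), a pseudokinase that binds ATF4 and CHOP and restrains AKT, was at 24.5 and 19.8 FPKM in SW1990 and at 65.2 and 17.3 FPKM in PANC-1. The unirradiated PANC-1 library stood above the other 3, and the irradiated one was the lowest of all. Its log2 ratio in PANC-1, -1.97 (-2.08 to -1.87, called, 3.93-fold lower), was the largest among the members, and in SW1990 it was -0.29 (-0.41 to -0.17).

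PPP1R15A (chr19:48872392-48876057), the stress-induced phosphatase subunit, had ratios of opposite sign in the 2 lines. It was at 25.3 and 34.2 FPKM in SW1990 and at 55.1 and 24.3 FPKM in PANC-1. The log2 ratio was 0.47 (0.37 to 0.58) in SW1990 and not called, and -1.27 (-1.36 to -1.18) in PANC-1 and called. After radiation its level in PANC-1 was below that in SW1990.

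DDIT4 (REDD1, chr10:72273920-72276036), which inhibits mTORC1, showed the widest gap of the members between the unirradiated lines. It was at 11.2 and 12.8 FPKM in SW1990, while unirradiated PANC-1 cells had 159 FPKM and irradiated PANC-1 cells 52.8 FPKM. Both PANC-1 values exceeded both SW1990 values. The log2 ratio was -1.71 (-1.78 to -1.64, called, 3.28-fold lower) in PANC-1 and 0.20 (0.00 to 0.40) in SW1990. The antisense gene DDIT4-AS1 overlaps it but had 0 counts in all 4 libraries.

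Among the enzymes and transporters, ASNS (chr7:97852118-97872542) makes asparagine and is the textbook ATF4 target, with the element printed above. It was at 34.5 and 28.9 FPKM in SW1990 and at 92.8 and 47.4 FPKM in PANC-1, both PANC-1 libraries above both SW1990 libraries. Its log2 ratio was -1.03 (-1.11 to -0.94) in PANC-1, 2.04-fold lower and just past the fold limit, and -0.36 (-0.48 to -0.24) in SW1990. It was no longer called at -0.94 with library totals as the scale or at -0.97 with the ratio of FPKM. AC079781.5 shares 44.6% of the exonic bases of ASNS on the same strand and was not analysed here, so reads in the shared bases cannot be assigned with certainty.

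CHAC1 (chr15:40952962-40956519) cleaves glutathione. It was the scarcest member in SW1990, at 4.01 and 3.90 FPKM, and was at 29.3 and 9.75 FPKM in PANC-1. Both PANC-1 libraries were again the higher ones. The log2 ratio was -1.66 (-1.83 to -1.49, called, 3.15-fold lower) in PANC-1, and -0.03 in SW1990, where 135 and 133 counts allowed a range from -0.38 to 0.33.

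SLC3A2 (CD98, chr11:62856102-62888875) is the heavy chain of several amino acid exchangers. It was at 223 and 187 FPKM in SW1990 and at 182 and 145 FPKM in PANC-1. The 4 libraries lay close together and no comparison called it. Its log2 ratios were -0.02 (-0.08 to 0.04) in SW1990 and -0.19 (-0.26 to -0.13) in PANC-1. SLC3A2 and ATF4 took the first and second places by FPKM among the 10 genes in every library, with ATF4 first in unirradiated PANC-1 cells, where DDIT4 came next after them.

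**Figure D2:**
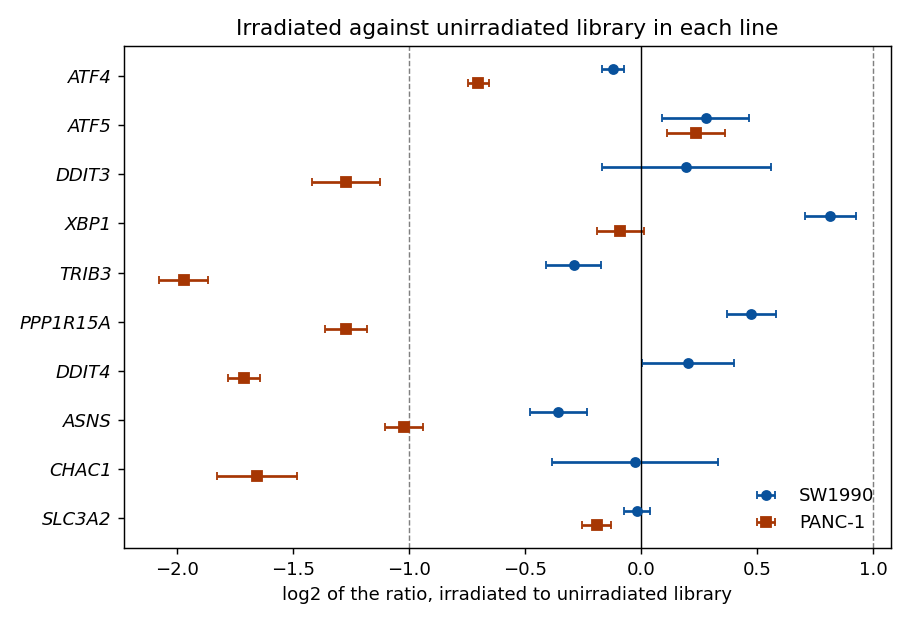
Log2 ratio of the irradiated to the unirradiated library for each gene (horizontal axis), circles for SW1990 and squares for PANC-1, with exact 95% intervals from the counts and dashed lines at the fold limit of 2. In PANC-1, 6 genes lie past the lower limit, from -1.03 for ASNS to -1.97 for TRIB3, where 2.35% of all genes were called lower, and in SW1990 none passes either limit, where 4.13% of all genes were called.

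Counted together, 6 of 10 members were called in PANC-1 and all 6 were lower in the irradiated library, where 4.7% of 15159 genes tested were called and 2.35% were called lower. The members' median log2 ratio was -1.15, against -0.02 for all genes tested. Among the 15159 genes, TRIB3 was among the lowest 1.12% by log2 ratio, DDIT4 among the lowest 1.48% and CHAC1 among the lowest 1.58%. With a coefficient of variation of 0.2 assumed between replicates, 1 member (TRIB3) was called, and with 0.4 none was. Of all genes called in PANC-1, 357 were higher and 356 lower, a split that became 455 and 283 with library totals and 403 and 268 with FPKM ratios.

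In SW1990 0 of 10 members were called, where 4.13% of 15731 genes tested were. The median of the members was 0.09, against -0.01 for all genes tested, with 5 members above and 5 below 0. XBP1 was called higher when the fold limit was set to 1.5, where 819 of all genes tested were called higher and 637 lower.

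The difference of the response between the lines was tested itself, as the log2 ratio in SW1990 minus that in PANC-1. It was positive for all 10 members and called for 5 (DDIT4, PPP1R15A, TRIB3, CHAC1 and DDIT3), where 3.38% of 17662 genes tested were called in this direction. The difference was 1.94 (1.73 to 2.15) for DDIT4, 1.77 (1.64 to 1.91) for PPP1R15A, 1.71 (1.55 to 1.86) for TRIB3, 1.65 (1.27 to 2.04) for CHAC1 and 1.49 (1.11 to 1.87) for DDIT3. XBP1, at 0.93 (0.78 to 1.08), ASNS, at 0.69 (0.55 to 0.84), and ATF4, at 0.61 (0.54 to 0.67), stayed under the limit of 1. That of ATF5 was 0.07 (-0.15 to 0.29), and it was -0.08 with library totals. With a coefficient of variation of 0.2 assumed, none of the 5 was called. Over all genes, 597 differences were called higher and 497 lower, against 446 and 651 with library totals.

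When both lines were fitted together, with cell line as a covariate and the lines as 2 pairs, 0 of 18180 genes were called by the quasi-likelihood test of edgeR at an adjusted p below 0.05 (0%), so none of the members was. Without adjustment 833 genes, or 4.58%, were below 0.05, and ASNS was the only member there. Its adjusted p was 0.936. DESeq2 called 39 genes and 0 members. The fit had 1 residual degree of freedom, and its common coefficient of variation was 0.218.

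Before radiation the lines differed widely in these genes. Lower levels in SW1990 were called for 7 of 10 members, where 35.9% of 16626 genes tested were called and 18.6% were called lower. The median of the members was -1.40, against -0.01 for all genes tested. With library totals as the scale the median of all genes was 0.20 and ATF5 was not called. The log2 ratio of SW1990 to PANC-1 was -4.09 (-4.24 to -3.94) for DDIT4, -3.33 (-3.61 to -3.06) for DDIT3 and -3.05 (-3.32 to -2.80) for CHAC1. ASNS, TRIB3 and PPP1R15A followed at -1.48, -1.43 and -1.38, and ATF5 at -1.02. XBP1, at -0.53, ATF4, at -0.35, and SLC3A2, at 0.30, were not called. ATF4 mRNA thus differed 1.27-fold between the unirradiated lines, while DDIT4 differed 17.0-fold. Of all genes called, 2879 were higher and 3096 lower in SW1990, against 3507 and 2565 with library totals and 3438 and 2586 with FPKM ratios.

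This comparison, the one of radiation in PANC-1 and the difference of the response share the unirradiated PANC-1 library. A library that stood high for these genes would appear in each. The values after radiation, which do not use it, were as follows. On the scale of all 4 libraries, the log2 ratio of irradiated PANC-1 to irradiated SW1990 was 2.17 for DDIT4, 1.85 for DDIT3, 1.41 for CHAC1, 0.97 for ATF5 and 0.80 for ASNS. It was below 0 for ATF4 (-0.25), TRIB3 (-0.27), PPP1R15A (-0.38), XBP1 (-0.39) and SLC3A2 (-0.49). Of the 6 genes called in PANC-1, 4 were higher than in SW1990 after radiation, and TRIB3 and PPP1R15A were lower.

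**Figure D3:**
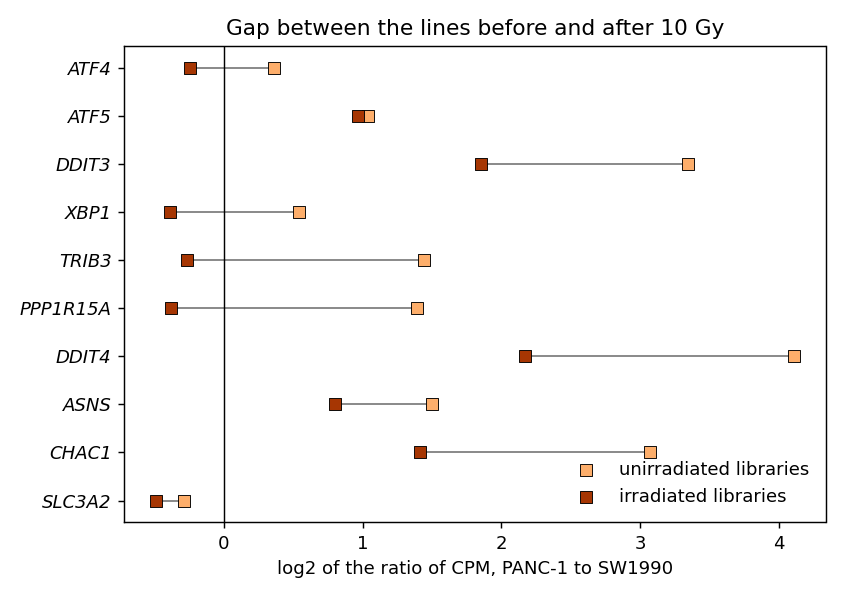
Log2 ratio of CPM of PANC-1 to SW1990 (horizontal axis) for each gene, light squares for the unirradiated libraries and dark squares for the irradiated libraries, joined by a line. The gap of DDIT4 goes from 4.10 to 2.17 and that of TRIB3 from 1.44 to -0.27, while ATF5 stays near 1.04 and 0.97.

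The rest of the pathway was read from lists compiled from general knowledge, but with earlier results of these data known. Their counts are thus no independent check. The sensors and the translation machinery that start the response, 21 kinases, eIF2 and eIF2B subunits and phosphatase partners, had 0 genes called in either line after radiation, a count near the share of all genes (4.13% in SW1990 and 4.7% in PANC-1). Their median log2 ratios were -0.06 in SW1990 and -0.07 in PANC-1. EIF2AK3 (PERK), the kinase of the endoplasmic reticulum, was at 5.82 and 4.75 FPKM in SW1990 and 6.78 and 5.58 FPKM in PANC-1. EIF2S2, the beta subunit of eIF2, had the most negative ratio of the list in PANC-1, -0.57, at 74.1 and 52.8 FPKM.

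Of the related bZIP factors and regulators, 5 of 16 tested were called in PANC-1, all lower, where 2.35% of all genes were. The list's median in PANC-1 was -0.56, and 6 of the 16 ratios were above 0. In SW1990 0 of 13 were called, near the 4.13% of all genes. ATF3, a stress-induced partner of CHOP, was at 24.0 FPKM in unirradiated and 5.94 FPKM in irradiated PANC-1 cells (log2 ratio -2.17), and at 10.1 and 19.6 FPKM in SW1990 (0.99, not called). NFE2L2, the antioxidant factor NRF2, was at 89.7 and 34.3 FPKM in PANC-1 (-1.57) and at 23.9 and 34.3 FPKM in SW1990 (0.92, not called). For both genes the difference of the response was called, at 3.19 and 2.52. In that test 5 of 17 genes of the list were called higher, where 3.38% of all genes were, and 1 lower, where 497 of 17662 were. The 5 include NUPR1, under 1 FPKM in SW1990, and CEBPD, at 1.21 and 0.858 FPKM in PANC-1. The 1 called lower was the pseudokinase TRIB2 (-1.94). It was at 1.03 and 2.07 FPKM in PANC-1 (0.96, not called) and under 1 FPKM in SW1990. NUPR1, a stress-induced chromatin protein, was at 12.7 and 2.47 FPKM in PANC-1 (-2.05) and under 1 FPKM in SW1990. CEBPB and CEBPG, which pair with ATF4, had log2 ratios of -1.07 and -1.12 in PANC-1. The change of CEBPB was just under the fold limit by FPKM, at 24.6 and 12.4 FPKM, and also with library totals as the scale.

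Genes of amino acid transport and synthesis were lower in irradiated PANC-1 cells in 21 of 22 cases by sign, with 6 called, all lower, beside 2.35% of all genes, and a median of -0.79. In SW1990 0 of 20 were called, near the 4.13% of all genes, and the median was -0.09. SLC1A4, a transporter of small neutral amino acids, was at 23.1 and 7.25 FPKM in PANC-1 (log2 ratio -2.10) and at 13.5 and 10.3 FPKM in SW1990. SLC7A11, the cystine transporter that pairs with SLC3A2, was at 21.3 and 10.3 FPKM in PANC-1 (-1.17) and at 8.38 and 5.62 FPKM in SW1990 (-0.50, not called). CTH, which makes cysteine, ALDH1L2 of mitochondrial folate metabolism, the glycine transporter SLC6A9 and the aminotransferase GPT2 were the others called, between -1.07 and -1.30. GPT2, at -1.07, was just past the fold limit and fell under it with library totals as the scale. PSAT1 of serine synthesis, at 80.6 and 43.9 FPKM (-0.94), and GOT1, at 82.2 and 45.4 FPKM (-0.94), were not.

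The 14 genes of the tRNA list, which holds a part of the cytosolic tRNA synthetases and the tRNA exporter XPOT, all had negative ratios in PANC-1, with a median of -0.49. In either line 0 of the 14 were called, near the share of all genes (4.13% and 4.7%). GARS, the glycine enzyme, was at 425 and 220 FPKM in PANC-1 (-0.87), and WARS, the tryptophan enzyme, at 52.8 and 27.4 FPKM (-0.95). In SW1990 the median was -0.08.

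Among other targets of ATF4 and CHOP, 7 of 22 were called in PANC-1, all lower, beside 2.35% of all genes, with a median of -0.73. SESN2, a leucine sensor that restrains mTORC1, was at 57.5 and 15.2 FPKM in PANC-1 (log2 ratio -2.00) and at 4.82 and 8.31 FPKM in SW1990 (0.81, not called). The autophagy gene MAP1LC3B was at 50.5 and 15.9 FPKM in PANC-1 (-1.72), and GDF15, a secreted stress cytokine, at 251 and 123 FPKM (-1.12). FAM129A, ADM2, LAMP3 and VLDLR were called between -1.48 and -1.82. FAM129A, at 2.64 and 0.866 FPKM, and LAMP3, at 1.29 and 0.444 FPKM from 121 and 38 counts, were tested only through the unirradiated library, which fixed their direction, and 5 were called without them. In SW1990 the list had 3 of 20 called, all higher, where 2.26% of genes tested were called higher, with a median of 0.13. These 3 were CDKN1A, at 1.70, the proapoptotic BBC3 (PUMA), at 2.90 and 7.89 FPKM (1.17), and KLHL24, at 1.04 from 55 and 114 counts. CDKN1A and BBC3 are also well-known p53 targets, and the FPKM of KLHL24 went the other way, from 1.96 to 1.06.

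The chaperones and secretory genes of the ATF6 and XBP1 branches had a median of -0.09 in PANC-1, with 2 of 25 called, both lower, beside 2.35% of all genes called lower. These were SEC61A1, the translocon subunit, at 78.9 and 44.9 FPKM (log2 ratio -1.12), and ERN1, which encodes IRE1, at 6.71 and 4.59 FPKM (-1.07). By FPKM neither change reached the fold limit. HSPA5 (BiP), the main chaperone of the endoplasmic reticulum, was at 264 and 145 FPKM (-0.94, not called), against 162 FPKM in both SW1990 libraries. In SW1990 1 of 25 was called higher, beside 2.26% of all genes, and the median was 0.08. This was SEC61A1, at 67.8 and 122 FPKM (1.14), whose change by FPKM was again under the fold limit. No list had a gene called higher in PANC-1, near the share of all genes (357 of 15159). In the test of the difference 4 of 23 amino acid genes and 13 of 22 other targets were called higher. So were 3 of 25 genes of these branches, 0 of 14 of the tRNA list and 0 of 21 sensors, beside 3.38% of all genes. These lists had 0 called lower. The 4 amino acid genes include ALDH1L2, at 0.252 and 0.279 FPKM in SW1990, which passed the FPKM filter only through PANC-1. In SW1990 itself 20 amino acid genes and 20 other targets passed that filter. The rest of those tested for the difference in both lists likewise passed it only through PANC-1.

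**Figure D4:**
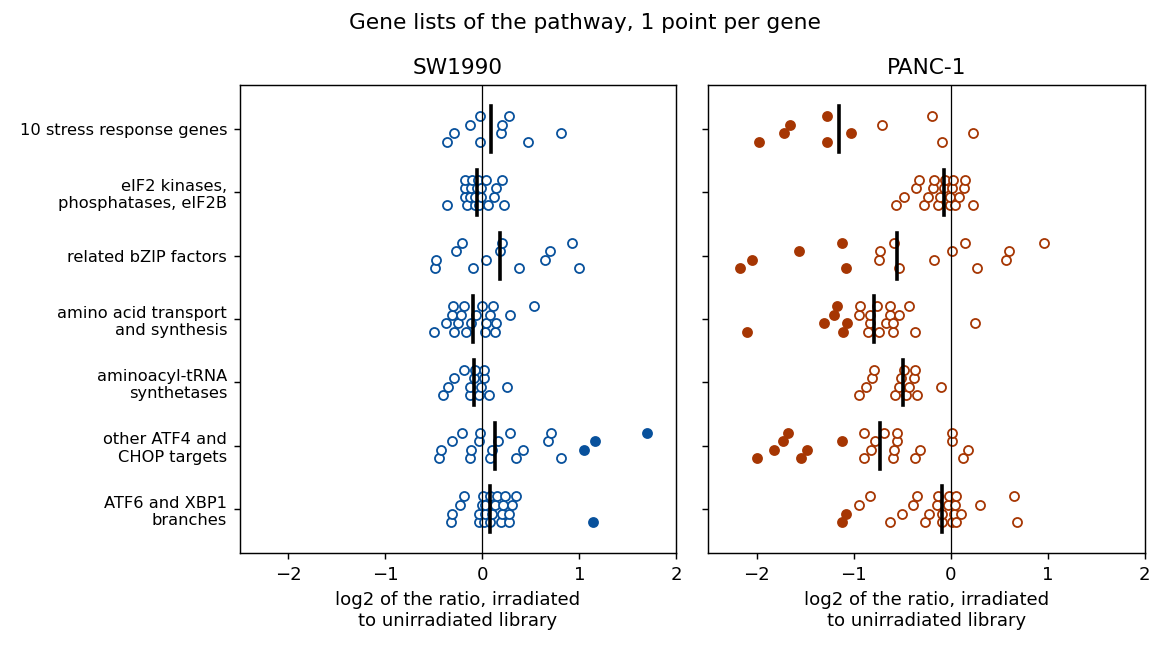
Log2 ratio of the irradiated to the unirradiated library for every tested gene of 7 lists, SW1990 on the left and PANC-1 on the right, with filled points for called genes, open points for the others and black bars for the medians. In PANC-1 the median is -1.15 for the 10 genes and -0.79 for amino acid genes, against -0.07 for the eIF2 kinases and their partners.

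Before radiation these lists also differed between the lines. Beside the 18.6% of all genes tested, SW1990 was called lower for 10 of 17 bZIP factors and regulators (NUPR1 included), 12 of 23 amino acid genes, 7 of 14 genes of the tRNA list (XPOT included) and 12 of 22 other targets. It was called higher for 1, 2, 0 and 1 of them, where 17.3% of all genes were. Of the genes called lower, 3 bZIP factors and regulators (BATF3, CREB3L1 and NUPR1), 3 amino acid genes (ALDH1L2, BCAT1 and CBS) and 2 other targets (SLC3A1 and STC2) were under 1 FPKM in SW1990 and were tested only through PANC-1, which fixed their direction. The same holds, with the lines exchanged, for CEBPA and SLC43A1 among those called higher. Without them 7, 9, 7 and 10 were called lower and 0, 1, 0 and 1 higher. The sensors had 0 called lower and 1 called higher, DNAJC3, an inhibitor of eIF2 kinases, at 22.0 FPKM in SW1990 and 8.54 FPKM in PANC-1. In the ATF6 and XBP1 branches 2 of 25 were called lower and 3 higher, neither above the share of all genes. SLC38A2, the amino acid-regulated glutamine transporter, was at 57.0 FPKM in SW1990 and 261 FPKM in PANC-1, and CARS, the cysteine synthetase, at 17.1 and 127 FPKM. STC2, a secreted glycoprotein, and CBS, which makes cystathionine, had 0 counts in both SW1990 libraries and were at 127 and 43.8 FPKM in unirradiated PANC-1 cells.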

How the data were processed

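RNA of 4 libraries, 1 per line and treatment, was sequenced after preparation with an mRNA kit (the sample records name rRNA depletion). The authors deposited 1 table with a read count and an FPKM per gene and library. The submitters' processing notes name CASAVA 1.8, FastQC 0.11.2, Trimmomatic 0.36, HISAT2 2.0, StringTie 1.3.3b, DESeq2 1.12.4 and the build GRCh38. The tool that made the counts and its strand setting are not given in the sources used here. Of the deposited rows, 1089 named no gene (0.453% to 0.635% of counts) and were left out, and 27 gene names turned into dates were restored.

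Libraries were compared with edgeR 4.0.16 (R 4.3.3), using exactTest at dispersion 0 with TMM scaling and Benjamini-Hochberg adjustment over all genes that reached an FPKM of 1 in any library compared, a value of 0 being set to 0.01. This replaces the study's DESeq2 step, which cannot estimate a spread from 1 library per group. The difference between lines was tested with glmLRT at dispersion 0, called at a q-value below 0.001 and a difference above 1 in log2, and both lines were fitted together with glmQLFTest. Its alternative used DESeq2 1.42.0. Intervals are exact (Clopper-Pearson), or normal ones from the counts for differences between lines, and cover counting error only. The floor of 3 counts equals 0.128 to 0.167 CPM. The scripts were tested on simulated data. Scaling, filters, the fold limit, an assumed spread, FPKM ratios and the rows naming no gene were varied. The test without equal library sizes was added after seeing the data.

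The 10 genes and the lists were chosen with earlier results of these data known. Named besides the 10 genes are, by rule, genes of a list that were called and up to 2 others per list and comparison with the largest log2 ratio at an FPKM of at least 5. The text gives a part of these. Epithelial and other cell type markers were used as a check.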

Additional observations from a re-analysis of the deposited data

Results flagged for a closer look

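For 5 genes the change with radiation differed between the lines in a test of the difference itself on the reads of the 4 libraries (log2 ratio in SW1990 minus that in PANC-1). It was 1.94 for DDIT4, 1.77 for PPP1R15A, 1.71 for TRIB3, 1.65 for CHAC1 and 1.49 for DDIT3. Each was lower in irradiated PANC-1 cells past the fold limit, and in SW1990 the log2 ratios lay between -0.29 and 0.47. Over all 17662 genes tested, 3.38% were called in this direction. The test sees counting error and not the spread between cultures, and 0 of the 5 were called with an assumed coefficient of variation of 0.2. It uses the unirradiated PANC-1 library, as does the comparison of the unirradiated lines.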

How the results depend on the processing

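With 1 library per condition no replicate could be left out. The libraries carry no replicate numbers, and the lines served as pairs only in the fit of both lines, which called 0 genes with and without cell line as a covariate. With an assumed coefficient of variation of 0.2, 99 genes were called in SW1990, 103 in PANC-1 (1 of the 10 genes, TRIB3), 3636 between the unirradiated lines (3 of the 10, CHAC1, DDIT3 and DDIT4) and 99 for the difference of the response (0 of the 10). With 0.4, 15 genes were called in SW1990, 10 in PANC-1 (0 of the 10) and 1635 between the lines (1 of the 10, DDIT4). A fold limit of 1.5 gave 1456 genes in SW1990 (1 of the 10, XBP1) and 1777 in PANC-1, ATF4 among them. In the fit of both lines DESeq2 called 39 genes, against 0 with edgeR. Of the log2 ratios of the 10 genes, 1 changed sign, the difference of the response of ATF5, which was -0.0779 with library totals. Outside the assumed spread, the calls lost among the 10 genes were ASNS in PANC-1 and ATF5 between the unirradiated lines, each with library totals and with FPKM ratios. Depth limits DDIT3 and CHAC1 most, with 121 to 139 counts in SW1990.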

Other observations

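Markers of other cell types were low. Of 14 fibroblast, endothelial and leukocyte markers, 2 had an FPKM of at least 1 in each library, and their summed levels were 4.09 and 5.13 FPKM in unirradiated and irradiated SW1990 cells and 28.1 and 25.7 FPKM in PANC-1. CD68, which lysosomes of many cells carry, was the most abundant in PANC-1, at 18.8 and 13.9 FPKM, followed by COL1A1 at 8.44 and 11.0 FPKM. COL1A2, DCN and CD3E had 0 counts in all 4 libraries. Of 7 acinar and islet markers none reached 1 FPKM in any library, and INS, GCG and SST had 0 counts in all 4.

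Counts and FPKM did not always move together. In SW1990 13.0% of 15731 genes tested, and in PANC-1 14.5% of 15159, had ratios of opposite sign in the deposited counts and FPKM, among them 11 called genes in each line. KLHL24 in SW1990 was 1 of these.

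The share of counts on genes of the mitochondrial genome was 4.40% and 5.53% in unirradiated and irradiated SW1990 cells and 3.29% and 2.98% in PANC-1.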
